A study of Triticum aestivum with 12 samples.

Results

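The transcripts described here are those of the large subunit of Rubisco and of a pair of photosystem II proteins, measured in the roots of wheat (Triticum aestivum) seedlings. They were taken as every probe set of the wheat array whose ID shares its stem and cluster number with TaAffx.128414.1.A1_x_at, a transcript cluster that holds most of the probe sets for the Rubisco large subunit, together with 3 further probe sets annotated to the Rubisco large subunit gene rbcl (LOC100049018), 1 for PsbO (LOC543291) and 2 for PsbP (LOC543290). This gave 65 of the 61179 probe sets tested. The cluster supplied 59 of them, of which 24 are annotated to rbcl and 35 carry no gene in the annotation used here. The members therefore hold 27 rbcl probe sets, 35 unannotated ones and 3 for the nuclear-encoded photosystem proteins. The annotation has 28 rbcl probe sets in all, and the remaining one, TaAffx.128896.17.S1_s_at, lies outside the cluster and is given below as a neighbour. Within the cluster, 4 transcript numbers have more than 1 probe set, so that their values share a target.

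Roots were sampled from seedlings 18 days old that had been raised in sand. Water stress was watering every 2 days and well water was watering every day. The groups were Pavon-TL, Null Control and Pavon76 under water stress and the same 3 genotypes under well water, with 2 arrays in each of the 6 groups and 12 arrays in all. Pavon76 is a bread wheat cultivar, Pavon-TL is known from outside the labels as a derivative of it that carries a translocated chromosome segment of a wild relative, and the labels leave Null Control undescribed beyond its name. Nothing in the labels states which plants or pools an array stands for, or what the replicate numbers 1 and 2 mark, so p-values measure only the spread between these arrays, which may be technical. In such whole-root samples, fewer cells of a type and less RNA per cell cannot be told apart.

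Rubisco fixes carbon dioxide in the chloroplast stroma. Its large subunit carries the active site and is encoded by the plastid gene rbcL, while the small subunit comes from nuclear genes. PsbO and PsbP are nuclear-encoded proteins of the oxygen-evolving complex on the lumen side of photosystem II: PsbO stabilises the manganese cluster and PsbP tunes its need for calcium and chloride. Roots hold non-green plastids, which carry the same plastid genome as chloroplasts, and roots growing in the dark normally make little photosynthetic protein. The gene table used for names (RefSeq, assembly IWGSC CS RefSeq v2.1) places the locus of the rbcl symbol on nuclear chromosome 2D. A plastid genome was not used here, so transcripts of plastid rbcL and of copies in nuclear or mitochondrial DNA cannot be told apart by these probe sets. PsbO lies on chromosome 2D and PsbP on 2A in the same table.

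The deposited values are log2 RMA values. Array medians lay between 5.89 and 5.93, and the 12-array means of all tested probe sets had a median of 5.92 and quartiles of 4.35 and 7.98. A member was called bright where its 12-array mean was at or above that median and dim where it was below. The levels of different probe sets are set beside each other only to place them on the array, since probe sets differ in affinity and no detection calls were used. All differences below are on the log2 scale.

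Most members gave low signal, and a few gave very high signal. Of the 65, 12 were bright and 53 dim, and 40 of the dim ones lay below the first quartile of all probe sets. The median of the members' means was 4.01, against 5.92 over all tested probe sets. The 27 rbcl probe sets ran from 2.73 to 11.94 around a median of 3.68, although they are annotated to the same gene, with 5 bright and 22 dim. Of the unannotated cluster members, 6 were bright and 29 dim. Among the nuclear genes, PsbO was bright and both PsbP probe sets were dim. The members closest to the threshold were TaAffx.128414.91.S1_at, just inside at 6.15, and TaAffx.128414.152.S1_at, just outside at 5.91. Names ending in _x_at, which the manufacturer gives to probe sets whose probes can also match other transcripts, made up 5 of the 12 bright and 9 of the 53 dim members.

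**Figure D1:**
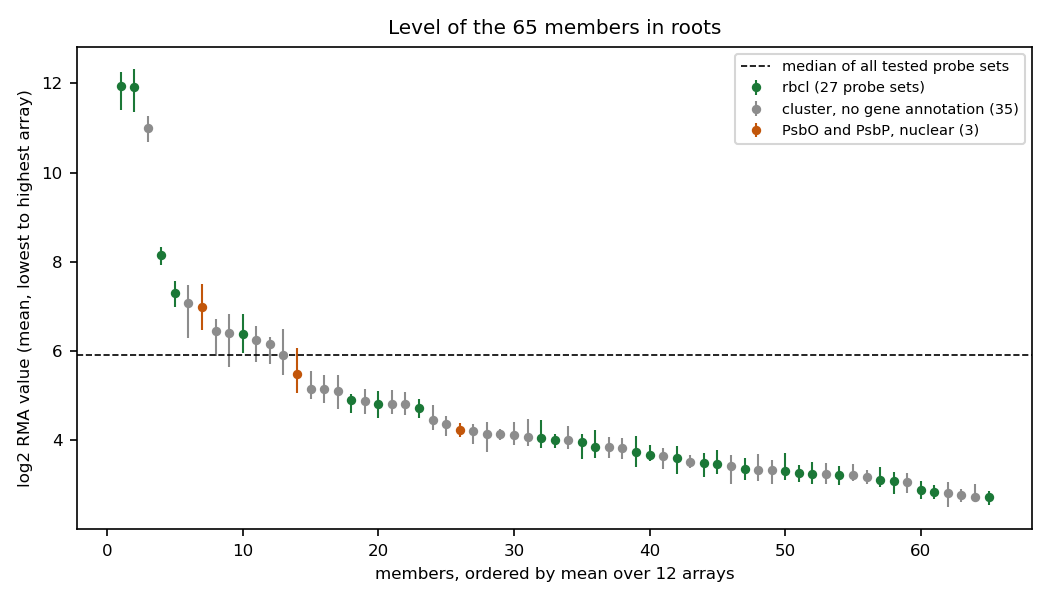
Mean log2 RMA value of each of the 65 members over the 12 arrays, ordered from highest to lowest, with bars from the lowest to the highest array. Green points are rbcl, grey points unannotated cluster members and orange points PsbO and PsbP; the dashed line is the median of all tested probe sets, 5.92, and 3 members stand near or above 11 while 53 lie below the line.

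The brightest member, the rbcl probe set Ta.24976.1.S1_x_at, had a mean of 11.94 and stood at percentile 98.0 of all probe sets. The rbcl probe set TaAffx.128414.1.A1_x_at followed at 11.91 and the unannotated TaAffx.128414.18.S1_at at 11.00. After these came a wide gap. The next members were the rbcl probe sets TaAffx.128414.196.S1_at at 8.15 and TaAffx.128414.181.S1_at at 7.29, the unannotated TaAffx.128414.219.S1_x_at at 7.08 and PsbO at 6.99. The other 5 bright members lay between 6.15 and 6.46, among them the rbcl probe set Ta.3807.1.A1_at at 6.39. From TaAffx.128414.181.S1_at downward, each bright member's array range overlapped that of the next. PsbP averaged 5.49 on Ta.85.1.S1_at and 4.24 on TaAffx.120874.1.S1_x_at. The remaining rbcl probe set outside the cluster, Ta.14567.2.S1_at, averaged 3.68.

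The lowest members were close to the bottom of the array's scale. TaAffx.128414.126.S1_at, an rbcl probe set, averaged 2.73. The unannotated TaAffx.128414.54.S1_at averaged 2.74 and TaAffx.128414.83.S1_at 2.79. Over all members together the spread over the 12 arrays was near that of the array: the median SD was 0.157, against 0.161 over all tested probe sets. The bright members varied more, with a median SD of 0.29 for rbcl and 0.23 for unannotated ones, and 0.37 for PsbO. The medians of the dim rbcl and dim unannotated members were 0.14 and 0.16.

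Other tissue markers placed these levels in a root. The root genes measured, DMAS1 of phytosiderophore synthesis on 3 probe sets and the malate transporter ALMT1 on 1, all lay above the median, between 8.19 and 10.69. The other photosynthesis genes in the annotation had 6 probe sets: petC of the cytochrome b6f complex, the Calvin cycle enzymes PRK and FBP, and the neighbouring rbcl probe set. All 6 lay below the median, between 3.79 and 5.35. Of 12 grain storage and starch probe sets, 10 lay below it. Tubulin and elongation factor probe sets, 12 in all, ran from 5.56 to 13.88, with 11 above the median.

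The first comparison asked whether watering every 2 days altered these transcripts. Of the 5 bright rbcl probe sets, 3 gave positive and 2 negative differences, and none passed the test over all probe sets. With limma, 0 of the 65 members passed an adjusted p of 0.05 for the mean of the 3 genotypes, beside 0% of all 61179 probe sets. When the replicate number entered as a block, 5 probe sets of the whole array passed (0.00817%), and 0 members were among them. At an unadjusted p under 0.05 the members counted 7, with 6 positive and 1 negative, against 4.28% of all probe sets. With the block they counted 12, with 10 positive and 2 negative, against 10.1%.

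TaAffx.128414.1.A1_x_at, the brightest rbcl probe set of the cluster, had 11.86 and 12.21 in Pavon-TL, 11.79 and 12.26 in Null Control and 11.95 and 12.32 in Pavon76 under water stress. Under well water it had 11.58 and 11.95 in Pavon-TL, 11.35 and 11.99 in Null Control and 11.55 and 12.12 in Pavon76. Each stressed array was above the well-watered array of the same genotype and number, in 6 of 6 pairs, while the 2 sets of arrays overlapped. The means were 12.07 ± 0.23 under water stress and 11.76 ± 0.30 under well water (SD, n = 6 each), a difference of 0.31 ± 0.17 (SE; limma adjusted p = 1.00). With the block its SE fell to 0.06 and its limma adjusted p was 0.253, so it did not pass there either.

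Ta.24976.1.S1_x_at behaved the same way array by array. Its values were 11.90, 12.21, 11.87, 12.25, 12.01 and 12.25 under water stress and 11.62, 12.00, 11.40, 12.03, 11.56 and 12.23 under well water, over Pavon-TL, Null Control and Pavon76 in turn. Its difference was 0.28 ± 0.17 (SE; limma adjusted p = 1.00, with the block 0.301), positive in 6 of 6 pairs. With the block its SE was 0.07. The deviations of these probe sets from their group means correlated at r = 0.986 over the 12 arrays. With 2 arrays a group the deviations of a pair mirror each other, so this describes 6 independent points, and both probe sets may bind the same transcript.

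Without the block, a further pair of members had the smallest unadjusted p-values. With it, TaAffx.128414.1.A1_x_at ranked ahead of TaAffx.128414.181.S1_at (limma unadjusted p = 0.000586 and 0.00205). TaAffx.128414.181.S1_at, annotated to rbcl, had 7.58, 7.32, 7.54, 7.40, 7.49 and 7.36 under water stress and 6.99, 7.22, 7.23, 7.32, 6.99 and 7.09 under well water, in the same order. The lowest stressed array lay just under the highest well-watered array, so the ranges barely overlapped. The means were 7.45 ± 0.10 under water stress and 7.14 ± 0.14 under well water (SD, n = 6 each), a difference of 0.31 ± 0.08 (SE; limma adjusted p = 1.00, with the block 0.267).

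TaAffx.128414.219.S1_x_at, an unannotated member of the cluster, gave the largest difference among the members. Its values were 7.31, 7.38, 7.19, 7.43, 7.48 and 7.41 under water stress and 6.71, 6.90, 6.28, 6.92, 6.64 and 7.28 under well water. The well-watered arrays spread over more than the stressed ones, and only Pavon76 well water number 2 reached into the stressed range. The means were 7.37 ± 0.10 under water stress and 6.79 ± 0.33 under well water, a difference of 0.58 ± 0.14 (SE; limma adjusted p = 1.00, with the block 0.172).

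**Figure D2:**
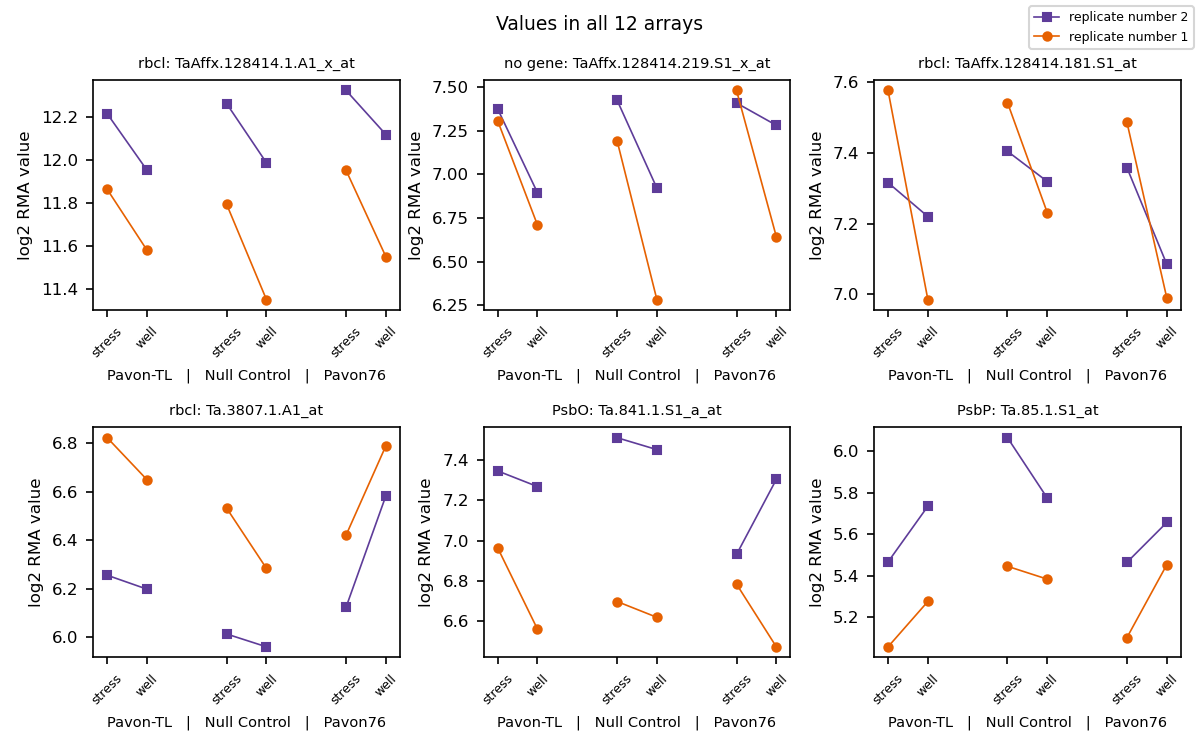
log2 RMA value of 6 members in each of the 12 arrays, by genotype, with water stress to the left of well water and lines joining arrays of the same replicate number. The stressed value is the higher in 6 of 6 pairs in all 3 panels of the top row, and number 2 lies above number 1 throughout for TaAffx.128414.1.A1_x_at, PsbO and PsbP and below it throughout for Ta.3807.1.A1_at.

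Not every bright member shared this direction. TaAffx.128414.18.S1_at had 10.99, 10.79, 11.08, 10.67, 10.99 and 11.09 under water stress and 11.14, 10.85, 11.27, 11.00, 11.20 and 10.90 under well water, a difference of -0.12 ± 0.11 (SE). TaAffx.128414.196.S1_at had 8.21, 8.22, 8.06, 7.99, 8.10 and 8.18 under water stress and 8.22, 8.33, 8.06, 8.24, 7.93 and 8.22 under well water, a difference of -0.04 ± 0.07. Ta.3807.1.A1_at had 6.82, 6.26, 6.53, 6.01, 6.42 and 6.12 under water stress and 6.65, 6.20, 6.28, 5.96, 6.79 and 6.58 under well water, a difference of -0.05 ± 0.15. The groups overlapped widely for all 3, and limma's adjusted p was 1.00 for each. Probe sets annotated to rbcl thus did not give one common value for water stress.

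Counted over the bright members, 8 differences were positive and 4 negative, with a median of 0.21 and a range of -0.12 to 0.58. Over all bright probe sets of the array, 48.3% were positive. Higher values under stress in 6 of 6 pairs were found for 5 of the 12 bright members, against 3.18% of all bright probe sets, and lower values in 6 of 6 pairs for 0 of them, against 2.97%. The 5 were Ta.24976.1.S1_x_at, TaAffx.128414.1.A1_x_at, TaAffx.128414.181.S1_at, TaAffx.128414.219.S1_x_at and TaAffx.128414.60.S1_x_at. Of these, 4 bear the suffix of probe sets that can match other transcripts, so they may not be separate measurements. Among the 53 dim members 23 differences were positive and 30 negative, with a median of -0.02. For 0 of the 65 members did the 6 stressed arrays stand apart from the 6 well-watered ones, beside 0.203% of all probe sets wholly above and 0.145% wholly below.

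The dim rbcl probe sets had 12 positive and 10 negative differences. Ta.14567.2.S1_at had 3.54, 3.85, 3.55, 3.64, 3.54 and 3.77 under water stress and 3.64, 3.90, 3.66, 3.75, 3.60 and 3.75 under well water, a difference of -0.07 ± 0.09 (SE). TaAffx.128414.126.S1_at had 2.71, 2.71, 2.69, 2.71, 2.82 and 2.83 under water stress and 2.73, 2.70, 2.67, 2.86, 2.81 and 2.56 under well water, a difference of 0.02. The ranges overlapped for both, although Ta.14567.2.S1_at was higher under stress in only 1 of 6 pairs.

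The unannotated dim members had 10 positive and 19 negative differences. TaAffx.128414.54.S1_at had 2.68, 2.79, 2.79, 2.72, 2.64 and 2.76 under water stress and 2.65, 3.03, 2.67, 2.67, 2.63 and 2.88 under well water, a difference of -0.03. TaAffx.128414.83.S1_at had 2.84, 2.77, 2.70, 2.69, 2.86 and 2.72 under water stress and 2.92, 2.84, 2.84, 2.81, 2.81 and 2.62 under well water, a difference of -0.04. At this end of the scale RMA understates differences, so a change of the transcripts could be missed.

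The nuclear photosystem genes gave no common difference. PsbO had 6.96, 7.34, 6.70, 7.51, 6.78 and 6.93 under water stress and 6.56, 7.27, 6.62, 7.45, 6.47 and 7.30 under well water. Its means were 7.04 ± 0.32 under water stress and 6.95 ± 0.44 under well water (SD, n = 6 each), a difference of 0.09 ± 0.24 (SE; limma adjusted p = 1.00). With the block its SE was 0.10 and its limma adjusted p was 0.788. PsbP had 5.06, 5.47, 5.45, 6.06, 5.10 and 5.46 on Ta.85.1.S1_at under water stress and 5.28, 5.73, 5.38, 5.77, 5.45 and 5.66 under well water. Its difference there was -0.11 ± 0.15, with both Null Control pairs higher and the pairs of Pavon-TL and Pavon76 lower under stress. With the block its SE there was 0.07 and its limma adjusted p was 0.602. Its other probe set, TaAffx.120874.1.S1_x_at, had 4.31, 4.38, 4.17, 4.08, 4.21 and 4.35 under water stress and 4.26, 4.12, 4.26, 4.21, 4.32 and 4.14 under well water, a difference of 0.03 ± 0.06. The probe sets of PsbP thus differed in sign, and neither passed the test.

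Beside the members, the neighbouring rbcl probe set TaAffx.128896.17.S1_s_at averaged 4.01 ± 0.26 under water stress and 3.69 ± 0.21 under well water (SD, n = 6 each), a difference of 0.32 ± 0.12 (SE; limma adjusted p = 1.00). The summed log2 values of the 6 other photosynthesis probe sets ran from 25.3 to 27.7 under water stress and from 26.0 to 27.0 under well water. Those of the 4 root probe sets ran from 34.8 to 41.0 under water stress and from 34.3 to 42.8 under well water. All but the ALMT1 probe set measure DMAS1. Both genes differed between the replicate numbers, as given below, so these ranges include that shift. The part of tissue make-up in the members' differences was not tested.

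Single genotypes were compared with 2 arrays against 2. Members higher under stress in 6 of 6 pairs are positive in every genotype by that count. Their shared sign below is therefore no further support, and only the sizes add to it. TaAffx.128414.1.A1_x_at differed by 0.27 ± 0.29 in Pavon-TL, 0.36 ± 0.29 in Null Control and 0.30 ± 0.29 in Pavon76 (SE, here without the block). With the block its SE was 0.11 in Pavon-TL and in Pavon76. TaAffx.128414.219.S1_x_at differed by 0.54 ± 0.25, 0.71 ± 0.25 and 0.48 ± 0.25 in the same genotypes, and TaAffx.128414.181.S1_at by 0.34 ± 0.13, 0.20 ± 0.13 and 0.38 ± 0.13. Ta.3807.1.A1_at had differences of 0.12 ± 0.26 in Pavon-TL, 0.15 ± 0.26 in Null Control and -0.41 ± 0.26 in Pavon76. With limma, 0 members passed in any genotype, with or without the block, beside 0% of all probe sets in each genotype without it and 0.00163% in Null Control with it. Unadjusted p-values under 0.05 were found for 3 members in Pavon-TL (2.5% of all probe sets), 2 in Null Control (3.42%) and 3 in Pavon76 (2.84%). With the block these counts were 8 (5.99%), 6 (8.38%) and 7 (6.57%).

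**Figure D3:**
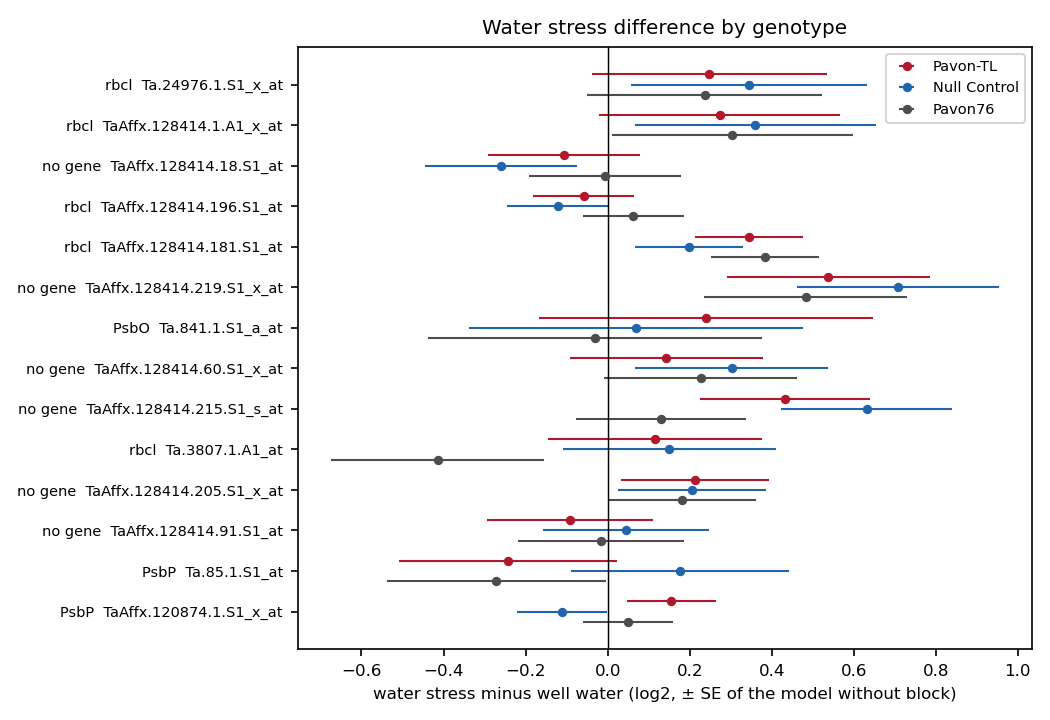
Difference between water stress and well water (log2, ± SE from the model without the block) in Pavon-TL (red), Null Control (blue) and Pavon76 (grey) for the 12 bright members and the PsbP probe sets, ordered by mean level. The points of the leading rbcl probe sets and of TaAffx.128414.219.S1_x_at lie right of 0 in the 3 genotypes. This follows from their higher stressed values in 6 of 6 pairs. Those of Ta.3807.1.A1_at fall on both sides.

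Without the block, the member with the smallest p in each genotype was an unannotated one. In Pavon-TL it was TaAffx.128414.149.S1_at, with 4.97 and 4.92 under water stress and 5.56 and 5.20 under well water, a difference of -0.43 ± 0.13 (SE; limma adjusted p = 1.00). In Null Control it was TaAffx.128414.215.S1_s_at, with 6.59 and 6.53 under water stress and 5.65 and 6.21 under well water, a difference of 0.63 ± 0.21 (SE; limma adjusted p = 1.00). In Pavon76 it was TaAffx.128414.201.S1_x_at, with 3.02 and 3.27 under water stress and 3.54 and 3.54 under well water, a difference of -0.40 ± 0.13 (SE; limma adjusted p = 1.00). With the block, the rbcl probe set Ta.3807.1.A1_at had a smaller p in Pavon76 (limma unadjusted p = 0.00509, against 0.0104). Its limma adjusted p there was 0.598. In Null Control another bright unannotated member led with the block (limma adjusted p = 0.438). That of TaAffx.128414.215.S1_s_at was not below 0.508 in any setting. Different members led in each genotype, and each was one of 65 chosen by its p.

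The test of the difference itself set the stress difference of Pavon-TL against the mean of Null Control and Pavon76. With limma, 0 members passed, beside 0% of all probe sets, and 1 member had an unadjusted p under 0.05, against 1.77%. With the block 0 members passed as well, and 2 had an unadjusted p under 0.05, against 4.67%. The 1 member was again TaAffx.128414.149.S1_at, at -0.57 ± 0.15 (SE; limma adjusted p = 1.00). Its stressed and well-watered values were 5.11 and 5.19 against 5.02 and 5.09 in Null Control, and 5.34 and 5.27 against 5.13 and 5.14 in Pavon76. The interaction was -0.06 ± 0.36 for TaAffx.128414.1.A1_x_at and -0.06 ± 0.30 for TaAffx.128414.219.S1_x_at, and 0.22 ± 0.50 for PsbO. These errors are from the model without the block, so they include the shift between the replicate numbers. At this size they leave room for differences as large as the stress differences themselves.

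The next comparison asked whether the translocation line differed from its controls, over both water conditions. TaAffx.128414.1.A1_x_at and PsbO gave differences smaller than their errors. With limma, 0 of the 65 members passed between Pavon-TL and the mean of Null Control and Pavon76, while 0.199% of all probe sets did. With the block 0.634% of all probe sets passed and again 0 members. Unadjusted p-values under 0.05 were found for 2 members, against 3.96% of all probe sets, and with the block for 7, against 9.59%. TaAffx.128414.1.A1_x_at averaged 11.90 ± 0.26 in Pavon-TL (SD, n = 4) and 11.92 ± 0.34 in the control genotypes (SD, n = 8), a difference of -0.01 ± 0.18 (SE). PsbO averaged 7.03 ± 0.36 in Pavon-TL and 6.97 ± 0.40 in the control genotypes, a difference of 0.06 ± 0.25.

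The smallest p belonged to the unannotated TaAffx.128414.13.S1_at. It had 4.44, 4.41, 4.55 and 4.55 in Pavon-TL, against 4.25, 4.21, 4.24 and 4.11 in Null Control and 4.35, 4.46, 4.39 and 4.37 in Pavon76. The Pavon-TL arrays were above all Null Control arrays and overlapped those of Pavon76. The difference was 0.19 ± 0.06 (SE; limma adjusted p = 1.00, with the block 0.334). Over the members, 36 differences were positive and 29 negative with a median of 0.03, against 50.2% positive over all probe sets. The 6 bright unannotated members were all on the negative side, with a median of -0.10, and none passed the test. Over all bright probe sets of the array, 44.5% were positive in this comparison. For 0 of the 65 members did the 4 Pavon-TL arrays stand apart from the 8 control arrays, beside 0.271% of all probe sets wholly above and 0.402% wholly below.

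Null Control and Pavon76 were also set against each other. With limma, 0 members passed, beside 0.0049% of all probe sets, and with the block 0 members beside 0.0147%. Unadjusted p-values under 0.05 were found for 5 members, against 2.04% of all probe sets, and with the block for 8, against 5.16%. Without the block, the smallest p was that of TaAffx.128414.50.S1_at. It had 3.45, 3.51, 3.23 and 3.43 in Null Control and 3.03, 3.18, 3.19 and 3.23 in Pavon76. Only the lowest Null Control array, 3.23, lay within the Pavon76 values, and the difference was 0.25 ± 0.08 (SE; limma adjusted p = 1.00). For 1 member the 4 Null Control arrays lay wholly above the 4 Pavon76 arrays, against 1.09% of all probe sets, and for 2 wholly below, against 0.66%. The first was TaAffx.128414.55.S1_at, with 3.97 to 4.32 in Null Control and 3.82 to 3.96 in Pavon76. The others were TaAffx.128414.13.S1_at, given above, and TaAffx.128414.122.S1_at, with means of 4.73 ± 0.09 in Null Control and 4.95 ± 0.09 in Pavon76 (SD, n = 4 each). All 3 are unannotated and dim, and limma's adjusted p was 1.00 for each. Ta.3807.1.A1_at differed by -0.28 ± 0.18 between these genotypes (SE; limma adjusted p = 1.00, with the block 0.797).

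The clearest difference among the members ran along the replicate numbers. Arrays numbered 2 were compared with arrays numbered 1 within groups, in the limma model that holds the number as a block. Of the 65 members, 8 passed, with 5 higher and 3 lower in number 2, beside 27.8% of all probe sets (14.7% higher and 13.1% lower). Bright members passed in 5 of 12 cases, against 45.3% of all bright probe sets, and dim members in 3 of 53, against 10.2% of all dim ones. At an unadjusted p under 0.05 the members counted 14, against 36.9% of all probe sets. Number 2 was above number 1 in 6 of 6 groups for 5 members, against 15% of all probe sets, and below it in 6 of 6 for 4, against 13%. Among the bright members these counts were 3, against 24% of all bright probe sets, and 1, against 20.4%. The members' shares were near or below those of the array as a whole, so the count says nothing particular to these genes. Since the numbers are crossed with the groups, it does not fall on a genotype or a water condition.

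Among the rbcl probe sets, the brightest pair was higher in number 2. TaAffx.128414.1.A1_x_at averaged 12.14 ± 0.15 in number 2 and 11.68 ± 0.23 in number 1 (SD, n = 6 each), a difference of 0.46 ± 0.06 (SE; limma adjusted p = 0.000334), and the arrays numbered 2 all lay above those numbered 1, by a margin too narrow to see in the plotted values. Ta.24976.1.S1_x_at averaged 12.16 ± 0.11 in number 2 and 11.73 ± 0.24 in number 1, a difference of 0.43 ± 0.07 (limma adjusted p = 0.00121). The dim rbcl probe set Ta.14567.2.S1_at averaged 3.78 ± 0.09 in number 2 and 3.59 ± 0.05 in number 1, a difference of 0.19 ± 0.06 (limma adjusted p = 0.0376). All 3 were higher in number 2 in 6 of 6 groups.

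The rbcl probe set Ta.3807.1.A1_at went the other way. It averaged 6.19 ± 0.22 in number 2 and 6.58 ± 0.21 in number 1, a difference of -0.39 ± 0.07 (SE; limma adjusted p = 0.00130), lower in number 2 in 6 of 6 groups. Probe sets annotated to one gene thus moved in opposite directions between the numbers, each past the threshold. Ta.3807.1.A1_at deviated from its group means against TaAffx.128414.1.A1_x_at, at r = -0.89 over the 12 arrays.

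The unannotated members that passed were both lower in number 2. TaAffx.128414.152.S1_at had 5.47 and 5.76 in Pavon-TL, 5.84 and 5.75 in Null Control and 5.55 and 5.73 in Pavon76 for number 2. For number 1 it had 6.50 and 6.42 in Pavon-TL, 6.26 and 6.14 in Null Control and 5.79 and 5.74 in Pavon76, each pair giving water stress first. The difference was -0.46 ± 0.11 (SE; limma adjusted p = 0.0109), and it was widest in Pavon-TL and narrowest in Pavon76. TaAffx.128414.18.S1_at averaged 10.88 ± 0.15 in number 2 and 11.11 ± 0.11 in number 1, a difference of -0.23 ± 0.07 (limma adjusted p = 0.0405), and in stressed Pavon76 its sign was the opposite. The calls of Ta.14567.2.S1_at and TaAffx.128414.18.S1_at were the weakest and were lost when most single arrays were left out, with adjusted p-values up to 0.107 and 0.124.

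Both nuclear photosystem genes were higher in number 2. PsbO averaged 7.30 ± 0.20 in number 2 and 6.68 ± 0.17 in number 1 (SD, n = 6 each), a difference of 0.62 ± 0.10 (SE; limma adjusted p = 0.000760), the largest positive one among the members. PsbP on Ta.85.1.S1_at averaged 5.69 ± 0.22 in number 2 and 5.29 ± 0.17 in number 1, a difference of 0.41 ± 0.07 (limma adjusted p = 0.000973), with the 6 arrays numbered 2 all above the 6 numbered 1. Both were higher in 6 of 6 groups. The other PsbP probe set, TaAffx.120874.1.S1_x_at, differed by -0.04 ± 0.07 and did not pass. Arrays of the 2 numbers stood fully apart, with number 2 above, for 2 members, against 9.12% of all probe sets, and with number 2 below for 0, against 6.61%.

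**Figure D4:**
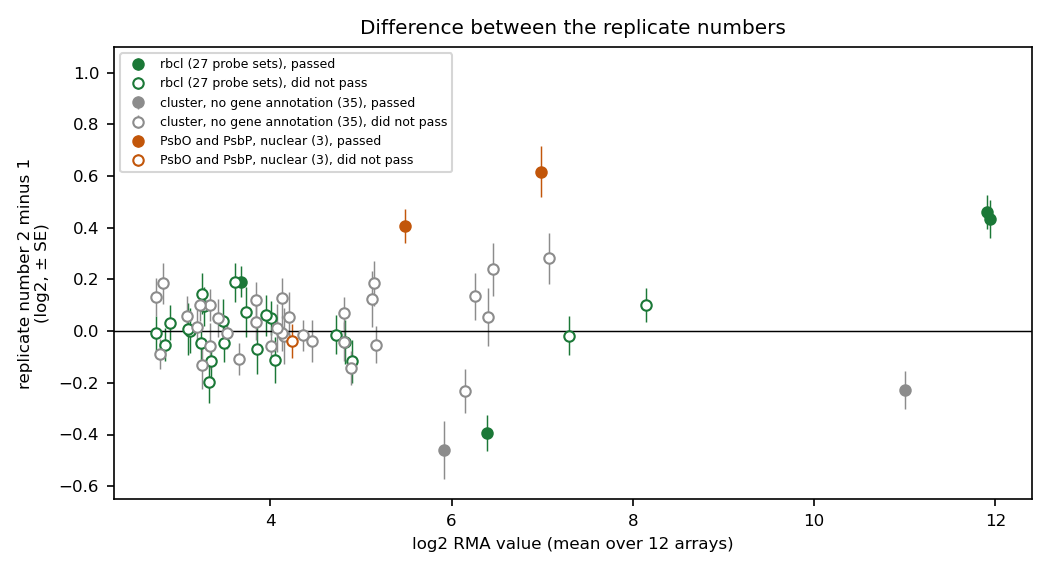
Difference between replicate numbers 2 and 1 within groups (log2, ± SE, limma with the number as a block) against the mean log2 RMA value, for the 65 members. Filled points, 8 in all, passed an adjusted p of 0.05: PsbO, PsbP and the brightest rbcl pair lie above 0, and Ta.3807.1.A1_at, TaAffx.128414.152.S1_at and TaAffx.128414.18.S1_at below.

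Marker genes outside the members were set against the replicate number as well. Of the 6 other photosynthesis probe sets, 1 passed upward and 0 downward. petC, the nuclear-encoded Rieske protein of the cytochrome b6f complex, was higher in number 2 by 0.85 ± 0.11 on Ta.861.1.S1_at (SE; limma adjusted p = 0.000251). The second petC probe set, TaAffx.128418.105.S1_at, differed by 0.08 ± 0.10 and PRK by 0.20 ± 0.10, while FBP differed by -0.09 and -0.07 and the neighbouring rbcl probe set by -0.19, and none of these passed. The phytosiderophore gene DMAS1 differed by -1.95, -2.07 and -2.26 on its 3 probe sets, with limma adjusted p-values up to 5.21e-05, and ALMT1 was higher by 0.86 ± 0.09 (limma adjusted p = 5.28e-05). Of the 12 tubulin and elongation factor probe sets, 0 passed upward and 3 downward, and of the 12 grain probe sets 0 passed. What the numbers stand for, and the part of tissue make-up in these differences, was not tested.

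The members did not vary as one group across the arrays. The median pairwise correlation of deviations from group means was 0.17 among the 5 bright rbcl probe sets, with a range of -0.89 to 0.99, and -0.04 among the 22 dim ones. Among unannotated members it was -0.21 for the 6 bright and 0.04 for the 29 dim. Against TaAffx.128414.1.A1_x_at, PsbO had r = 0.96 and PsbP r = 0.91 on Ta.85.1.S1_at but -0.42 on TaAffx.120874.1.S1_x_at. TaAffx.128414.181.S1_at, annotated to rbcl like TaAffx.128414.1.A1_x_at, had r = -0.01 against it. These correlations share the arrays and their replicate numbers, and they describe 6 independent points each. Outside the members, the gene-annotated probe sets closest to the mean deviation of the bright rbcl members, of 1243 compared, were those of LOC780640 (r = 0.985), LOC543044 (0.951), LOC543422 (0.926), LOC542929 (0.925) and LOC542785 (0.925), for which the annotation gives no other name. That mean joins rbcl probe sets that opposed each other, so it need not follow any single one. In the same order these genes were higher in number 2 by 0.10, 0.15, 1.03, 0.14 and 0.06. Only LOC543422 passed (limma adjusted p = 0.00169).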

How the data were processed

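Total RNA from roots was extracted with Trizol and hybridised to 12 Affymetrix wheat arrays, per the labels' protocols. The deposited log2 values were computed by the authors with RMA, per the submitters' processing notes; its version is not given in the sources used here. Of the 61290 probe sets deposited, 111 Affymetrix controls were left out, leaving 61179. Gene names came from the platform annotation, which names 1 gene for 1273 of them; gene symbols were matched to RefSeq (IWGSC CS RefSeq v2.1).

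A model of 6 group means with shared spread was fitted with limma 3.58.1 under R 4.3.3. There were 8 comparisons, tested two-sided with Benjamini-Hochberg adjustment over all tested probe sets, and a probe set was called at an adjusted p under 0.05. The methods used by the authors for testing are not given in the sources used here. Dim probe sets were kept in the tests. The test was checked on simulated data with planted stress changes larger than any stress difference of the members. The check therefore does not show what the test can find at the members' size. No detection or depth measure was used, and the number of arrays limits the precision.

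The labels give the groups the same replicate numbers. Deviations from group means correlated between 0.606 and 0.795 in 15 of 15 pairs of groups, over the limit of 0.1, so the numbers were taken as pairing the samples. The model with the number as a block was an alternative, and it gave the comparison of the numbers. Other alternatives were median centring, quantile normalization, a filter at the median mean, an intensity trend in the prior variance, leaving out each array and, chosen after the data were seen, the block together with leaving out each array, for the mean stress difference.

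Members, gene lists and tests were chosen with earlier results of these data known. By the naming rule, array values were given for the rbcl probe sets outside the cluster, the 5 highest and 3 lowest cluster members, PsbO, PsbP, the smallest p of each comparison and every member that passed. Probe and promoter sequences were not used here.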

Additional observations from a re-analysis of the deposited data

Results flagged for a closer look

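Of 56 sets of 4, 6 or 8 arrays checked over the named members, 2 held an array far from the rest. Chance marks about 1 in 20 such sets. TaAffx.128414.83.S1_at was 2.62 in Pavon76 well water number 2, while the other 5 well-watered arrays lay between 2.81 and 2.92. TaAffx.128414.196.S1_at, an rbcl probe set, was 8.33 in Pavon-TL well water number 2, while the other 3 Pavon-TL arrays lay between 8.21 and 8.22.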

How the results depend on the processing

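With the replicate number as a block, the pairing moved 4 counts over all probe sets: 5 passed for water stress against 0 without it, 1 against 0 for stress in Null Control, 388 against 122 for Pavon-TL and 9 against 3 for Null Control against Pavon76. No member's call changed under the block, and the members called stayed at 0 under every alternative run in all comparisons except that of the replicate numbers. The block together with leaving out each array was run for the mean stress difference only. Leaving out single arrays gave 85 to 107 probe sets for Pavon-TL, 3 to 6 for Null Control against Pavon76 (6 without Null Control water stress number 1), 14301 to 16448 for the replicate number, and 6 to 9 members called by number. With the upper quartile as the threshold, 4 members were bright instead of 12, and with single arrays left out 12 to 13.

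Of 40 member values, 31 kept their sign throughout and 9 did not, all when single arrays were left out. For water stress these were Ta.3807.1.A1_at (-0.14 to 0.045), TaAffx.128414.196.S1_at (-0.087 to 0.0085), TaAffx.128414.54.S1_at (-0.092 to 0.035), TaAffx.128414.126.S1_at (-0.019 to 0.066) and PsbO (-0.046 to 0.23). For Pavon-TL they were TaAffx.128414.1.A1_x_at (-0.11 to 0.079) and PsbO (-0.11 to 0.24). For the replicate number they were TaAffx.128414.181.S1_at (-0.069 to 0.030) and TaAffx.128414.126.S1_at (-0.050 to 0.040). By number, Ta.14567.2.S1_at and TaAffx.128414.18.S1_at lost their calls in some alternatives, the second also under quantile normalization (limma adjusted p = 0.0719), and TaAffx.128414.219.S1_x_at gained one with the filter on dim probe sets (limma adjusted p = 0.0457) and without either array of stressed Pavon76 (0.0248). The filter leaves dim members without a value. The cause of these moves was not tested. Signal close to the bottom of the scale limits what can be seen of the dim members.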
